A study of Mus musculus with 19 samples.

Results

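The genes described here are the FGF receptors Fgfr1, Fgfr2, Fgfr3 and Fgfr4, the receptor adaptor Frs2, and the feedback inhibitors Spry1, Spry2, Spry4, Spred1 and Spred2. They are a chosen list of 10 genes, each found as the gene name of a probe in the scanner files among 37298 distinct gene names, and they were read by 24 probes. RNA came from mammary luminal cells (LCs) sorted as CD24+CD29lo from ovariectomized female C57Bl/6N mice, with 1 Agilent array for each of 19 mice. The groups were wild-type mice on 17β-estradiol (E2; mice L67, L50, L72 and L52, n = 4), C451A-ERα mice on E2 (L4, L58, L27, L76 and L51, n = 5), wild-type mice on E2 with progesterone (E2+Pg; n = 5, mice L21, L44, L47, L57 and L62) and C451A-ERα mice on the same E2+Pg (n = 5, mice L18, L53, L56, L61 and L63). C451A-ERα is a germline point mutation of the residue of the estrogen receptor ERα to which palmitate is attached, a modification needed for the membrane-bound pool of the receptor, so every cell of the mouse carries it and not the LCs alone. Ovariectomy was at 24 days of age, the pellet was placed 10 days later and treatment lasted 21 days, to an age of 8 weeks. All 19 mice thus lacked ovaries and received E2 (0.01 mg over 60 days), and the groups differ by genotype and by the added progesterone (Pg, 1.5 mg over 60 days). The arrays cannot show the genotype, since a probe reads the amount of a transcript and not the mutated base.

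Fibroblast growth factors bind receptor tyrosine kinases on the cell surface together with heparan sulfate. The activated receptor phosphorylates the adaptor Frs2, which recruits Grb2 and Sos and switches on RAS and the ERK kinases. ERK activity induces genes of the Etv and Dusp families and the Sprouty and Spred proteins, which in turn restrain RAS and RAF. In the mammary gland, stromal FGFs acting on epithelial Fgfr2 and Fgfr1 are known to drive the growth and branching of ducts, and Spry2 is known as an inhibitor of that branching.

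The probes on which the results turn are shown first, since an array value speaks only for the stretch of transcript that its probe binds. The sequences are those of the array design, 5′ to 3′ on the strand of the transcript, with positions on mm9. The first Fgfr2 probe, on the minus strand at chr7:137307473-137307532, has no stop codon in the frame that starts at its first base until it ends in TGA, the 3 bases in capitals.
Fgfr2 A_55_P2094881: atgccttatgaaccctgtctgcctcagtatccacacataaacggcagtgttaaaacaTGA
The other Fgfr2 probe, also on the minus strand, lies at chr7:137385966-137386025, in another part of the gene.
Fgfr2 A_52_P158800: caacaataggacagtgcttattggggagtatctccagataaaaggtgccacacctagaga
For Fgfr1 the probe used for the tests is represented by its last 30 bases, at chr8:26685102-26685131 on the plus strand, and one of the 3 others, at chr8:26682852-26682911, is given whole.
Fgfr1 A_55_P2057777: tattaaaaacaaacgaacagaaagaaaaaa
Fgfr1 A_65_P11598: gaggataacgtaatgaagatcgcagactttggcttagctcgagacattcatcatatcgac
For Fgfr3 the last 30 bases of the probe used lie at chr5:34079679-34079708 on the plus strand. The 60 bases of the other tested Fgfr3 probe are spread over chr5:34077856-34078090, so they are not contiguous on the genome. Capitals mark AATAAA, the usual signal for addition of the poly(A) tail, searched on the strand printed. The last 30 bases of 8.13% of the 56605 probes hold it.
Fgfr3 A_55_P1996578: ttactttccaaaaAATAAAgagataactgg
Fgfr3 A_65_P06147: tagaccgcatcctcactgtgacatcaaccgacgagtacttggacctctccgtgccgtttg
The last 30 bases of the probes used for Frs2 (minus strand, chr10:116507186-116507215), Spry1 (plus strand, chr3:37543224-37543253) and Spry2 (minus strand, chr14:106291385-106291414) follow, with the same capitals.
Frs2 A_52_P105138: cactgttattacAATAAAaccttgtgtgtg
Spry1 A_51_P490136: tcattgccttaaccacaaattgtggtgctt
Spry2 A_52_P368532: ccctttggacttgatgtatattgtacagtt

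A value below is the log2 of a probe's median signal after quantile normalization, and a difference is a log2 fold change. It compares mice for 1 probe, never 1 probe with another. Of the 24 probes, the brightest of each gene among those well above background on at least 4 arrays was used, which gave 9 of the 10 genes a value among the 20804 genes tested. Spry4, a Sprouty protein that restrains RAS activation, was the exception: its single probe was well above background on 0 of 19 arrays and gives no comparison. A call required a fold change above 1.5 together with an adjusted p (limma, Benjamini-Hochberg) under 0.05. Arrays had a 75th percentile of median signal between 248.5 and 490 over a background of 21 to 29, and 26473 to 31259 probes per array were well above background. No component of the sorted LCs can be separated here: fewer cells of a type and less RNA per cell cannot be told apart.

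None of the 9 genes was called in any of 6 comparisons. Between the genotypes 0 of 9 passed under E2 (0.0288% of all genes) and 0 of 9 under E2+Pg (0.00481%). E2+Pg against E2 gave 0 of 9 in wild-type LCs (1.31% of all genes) and 0 of 9 in C451A-ERα LCs (2.45%). The interaction of genotype and progesterone gave 0 of 9 (0% of all genes), and the genotype difference averaged over both treatments gave 0 of 9 (2.28%). At an unadjusted p under 0.05 there were 3 of 9 between the genotypes under E2 (13.6% of all genes) and 2 of 9 under E2+Pg (18.3%). The same threshold gave 3 of 9 for E2+Pg against E2 in wild-type LCs (16.2%), 3 of 9 in C451A-ERα LCs (18.3%), 3 of 9 for the interaction (9.36%) and 3 of 9 for the averaged genotype difference (18.3%). The 2 groups compared had no overlapping value for 1 of 9 genes between the genotypes under E2 (3.51% of all genes) and 1 of 9 under E2+Pg (2.61%), and for 3 of 9 with E2+Pg against E2 in wild-type (8.64%) and 3 of 9 in C451A-ERα LCs (5.02%). With only 9 genes, each of these counts lies no more than 3 genes from what its background share would give, so the values below describe single genes and not the family. Fgfr4 is among the 3 genes at the unadjusted threshold for E2+Pg in wild-type LCs, and among the 3 without overlap in C451A-ERα LCs. Its probe passed the filter only through mice on E2+Pg, so both of those counts are not independent of the filter.

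**Figure D1:**
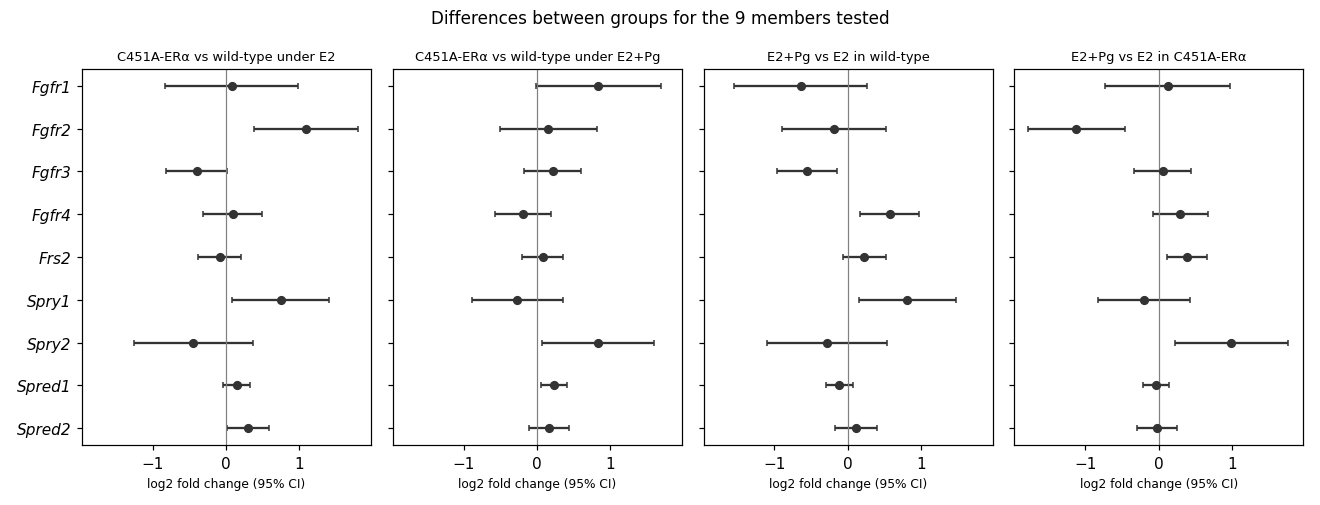
Log2 fold change (x axis) of each of the 9 genes with a value (y axis) in the 4 comparisons of 2 groups, with points for the estimate and bars for its 95% confidence interval from limma. The interval for Fgfr2 lies from 0.39 to 1.80 for the genotypes on E2 and from −1.79 to −0.46 for E2+Pg against E2 in C451A-ERα LCs.

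Fgfr2, the main receptor of ductal growth, had its highest mean in C451A-ERα LCs on E2. These mice lay at 8.42 (L4), 9.03 (L58), 9.16 (L27), 9.05 (L76) and 9.14 (L51), a mean of 8.96 ± 0.31 (SD, n = 5). With E2+Pg the C451A-ERα mice lay at 8.39 (L56), 7.37 (L18), 7.51 (L61), 8.11 (L53) and 7.81 (L63), a mean of 7.84 ± 0.42 (n = 5). Every mutant on E2 was above every mutant on E2+Pg, although L4 and L56 were separated by only 0.03, both on 1 slide. The difference was −1.12 (standard error 0.32), or 2.18-fold. Its limma adjusted p was 0.0628, over the threshold, and its two-sided exact permutation p of 0.00794 is the smallest that 5 against 5 mice allow. The mice of 1 slide differed by −1.65 to −0.03 over 5 slides. The difference passed the test in the authors' value table (−1.13, adjusted p = 0.0227) and among probes well above background on all arrays (−1.12, adjusted p = 0.0489), and the adjusted p was 0.0515 to 0.204 in the other 7 settings tried. The settings in which it passed called 695 of 19791 and 575 of 15545 genes.

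Wild-type LCs on E2 lay at 7.34 (L67), 7.23 (L50), 9.21 (L72) and 7.68 (L52), a mean of 7.87 ± 0.91 (SD, n = 4). Mouse L72 stood among the mutants and the other 3 stood among the mice on E2+Pg. Under E2 the genotypes therefore overlapped: C451A-ERα was 1.095 above wild-type (standard error 0.34, 2.14-fold) with a limma adjusted p of 0.157 and a two-sided exact permutation p of 0.0873, and was higher on 3 of 4 slides (−0.15 to 1.79). Without mouse L72 the difference was 1.54 with a limma adjusted p of 0.00221, in a fit that called 1045 of all 20804 genes. L72 had the highest value of the wild-type mice on E2, so leaving it out could only raise the difference. It was 1.21 (adjusted p = 0.100) without L4, L27 and L18, the 3 mice whose arrays correlated least with their own groups. Wild-type LCs on E2+Pg had a mean of 7.68 ± 0.42 (n = 5), with values of 7.27 (L57), 7.33 (L62), 7.67 (L44), 7.80 (L47) and 8.32 (L21). They overlapped with both wild-type mice on E2 and mutants on E2+Pg. In wild-type LCs E2+Pg against E2 gave −0.19 (standard error 0.34, adjusted p = 0.803), which turned to 0.26 without L72. The response to progesterone was not shown to differ between the genotypes (interaction −0.94, standard error 0.46, adjusted p = 0.472).

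**Figure D2:**
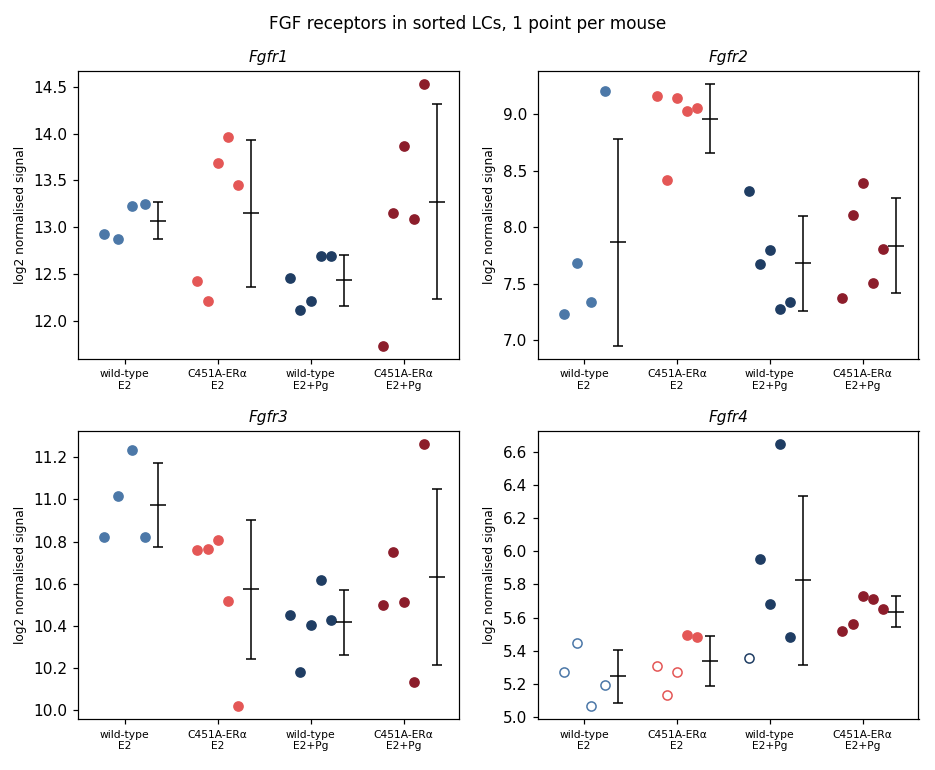
Log2 normalised signal (y axis) of the 4 FGF receptors in LCs of the 4 groups (x axis), 1 point per mouse, with the mean ± SD beside each group. Open points are arrays on which the probe was not well above background, as for Fgfr4 on all 4 wild-type E2 arrays. For Fgfr2 the 5 C451A-ERα mice on E2 lie at 8.42 to 9.16 and 1 of the 4 wild-type mice on E2 lies at 9.21.

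The other Fgfr2 probe ordered the mice in nearly the same way, with a Pearson r of 0.952 and a Spearman rho of 0.928 between the probes over the 19 arrays. That is a description, since both probes share each array and its depth. It placed wild-type LCs on E2 at 6.13 (L67), 5.91 (L50), 7.45 (L72) and 6.10 (L52) and mutants on E2 at 7.18 (L4), 7.77 (L58), 8.18 (L27), 7.96 (L76) and 7.46 (L51). By this probe L72 was the only wild-type mouse on E2 within the range of the mutants on E2. The differences by this probe were 1.31 between the genotypes under E2 (adjusted p = 0.123) and −1.01 for E2+Pg against E2 in C451A-ERα LCs (adjusted p = 0.0756). Averaged over both treatments, C451A-ERα was above wild-type by 0.63 with the first probe (adjusted p = 0.144) and by 0.81 with the other (adjusted p = 0.0504).

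Markers of hormone-sensing luminal cells, the LCs that express ERα and the progesterone receptor, also differed between mutants on E2 and on E2+Pg. The list holds Esr1, Pgr, Prlr, Cited1, Ly6a, Prom1, Foxa1, Areg, Wnt4 and Tnfsf11, and all 10 were measured. Averaged as log2 deviations from each gene's mean over the 19 arrays, it lay at 0.45 to 0.70 in C451A-ERα LCs on E2 and at −0.82 to −0.01 in C451A-ERα LCs on E2+Pg. In wild-type LCs on E2 it was −0.10 (L50), 0.10 (L67), 0.24 (L52) and 0.64 (L72), with L72 highest as for Fgfr2, and on E2+Pg it lay at −0.56 to 0.01. The log2 of the summed signal of the list was 16.72 to 17.30 in mutants on E2, 14.82 to 16.49 in mutants on E2+Pg, 16.08 to 17.22 in wild-type mice on E2 and 15.11 to 16.07 in those on E2+Pg. For E2+Pg against E2 in C451A-ERα LCs, 4 of the 10 were called lower and 0 higher, beside 2.45% of all genes called: Prom1 (−1.16, adjusted p = 0.00922), Foxa1 (−1.19, 0.0136), Ly6a (−1.88, 0.0176) and Pgr (−0.99, 0.0361). The call of Pgr held in 8 of 19 alternatives. In wild-type LCs the same comparison called 0 of the 10 (1.31% of all genes). At an unadjusted p under 0.05, 7 were lower and 1 higher (16.2% of all genes). The median was −0.73, where Fgfr2 stood at −0.19. In the averaged genotype difference Cited1 was called higher (1.27, adjusted p = 0.0418) and Prom1 lower (−0.66, adjusted p = 0.0355), beside 2.28% of all genes called. The list also holds hormone-responsive genes: the paper describes Areg as induced by E2 and Tnfsf11 as induced through the progesterone receptor. A change in their regulation and a change in cell types cannot be told apart here. The part of the marker shift in the Fgfr2 values was not tested.

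**Figure D3:**
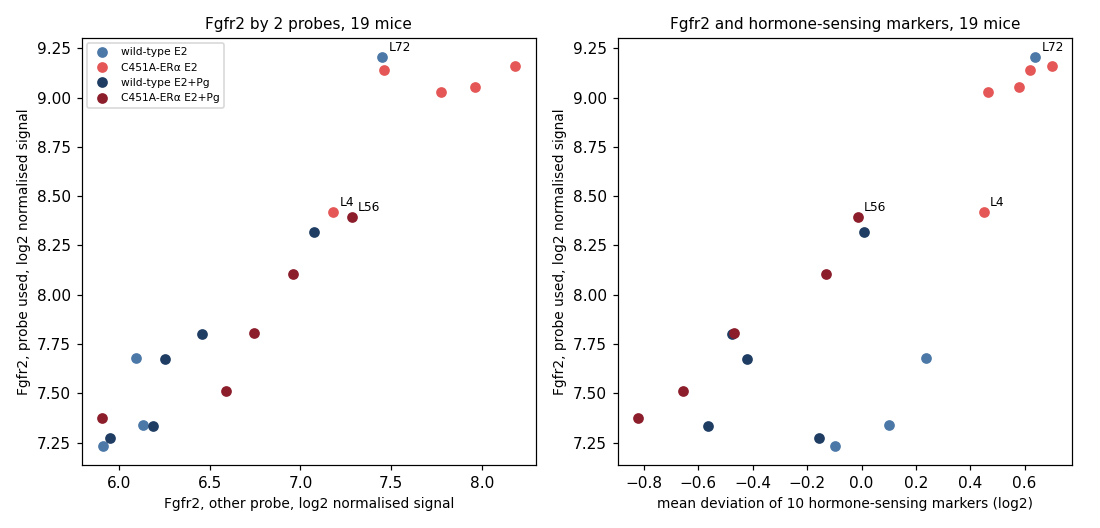
Fgfr2 by the probe used (y axis of both panels, log2 normalised signal) against its other probe (x axis of the left panel, log2 normalised signal) and against the mean log2 deviation of 10 hormone-sensing markers (x axis of the right panel), 1 point per mouse coloured by group. Wild-type mouse L72 on E2, at 9.21, lies with the C451A-ERα mice on E2 in both panels.

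Fgfr3, a receptor of the same family with a role in limiting bone growth, had its highest mean in wild-type LCs on E2. These 4 mice lay at 11.24 (L67), 10.82 (L50), 10.82 (L72) and 11.01 (L52), a mean of 10.97 ± 0.20 (SD, n = 4). Wild-type mice on E2+Pg lay at 10.62 (L57), 10.43 (L62), 10.18 (L44), 10.41 (L47) and 10.45 (L21), a mean of 10.42 ± 0.15 (n = 5), with no overlap between the treatments. The difference of −0.56 (standard error 0.20, 1.47-fold) had a limma adjusted p of 0.166 and a two-sided exact permutation p of 0.00794, and the mice of 1 slide differed by −0.62 to −0.39 on 4 slides.

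C451A-ERα LCs on E2 lay at 10.77 (L4), 10.52 (L58), 10.76 (L27), 10.02 (L76) and 10.81 (L51), a mean of 10.58 ± 0.33 (n = 5), all below the lowest wild-type mouse on E2, by 0.01 at the closest pair. The genotype difference under E2 was −0.40 (standard error 0.20, adjusted p = 0.392; two-sided exact permutation p = 0.0476). On E2+Pg the mutants lay at 10.52 (L56), 10.50 (L18), 10.13 (L61), 10.75 (L53) and 11.26 (L63), a mean of 10.63 ± 0.42, which overlapped with every other group. E2+Pg against E2 was 0.06 in C451A-ERα LCs (standard error 0.19) against the −0.56 of wild-type LCs, and the interaction of 0.61 (standard error 0.27) had an unadjusted p of 0.0362 and an adjusted p of 0.472. The other Fgfr3 probe followed the first less closely (r = 0.539, rho = 0.312 over the 19 arrays) and gave −0.01 for E2+Pg against E2 in wild-type LCs, with values of 5.48 to 6.38 in all mice. A further Fgfr3 probe was well above background on 0 arrays. The genes whose levels were most like those of Fgfr3 over the 19 arrays were Slc34a3, a phosphate transporter (r = 0.779), Cysrt1 (r = 0.774) and Padi1, a peptidylarginine deiminase (r = 0.753).

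Fgfr1, the other receptor known from ductal growth, spread far more among the mutants than among the wild-type mice. Wild-type LCs lay at 13.23 (L67), 12.93 (L50), 13.25 (L72) and 12.87 (L52) on E2 and at 12.69 (L57), 12.69 (L62), 12.11 (L44), 12.21 (L47) and 12.45 (L21) on E2+Pg, means of 13.07 ± 0.20 (SD, n = 4) and 12.43 ± 0.27 (n = 5) with no overlap. Their difference was −0.64 (standard error 0.43, limma adjusted p = 0.458; two-sided exact permutation p = 0.00794), and −1.04 to −0.24 within the 4 slides. The standard error is drawn from all 4 groups and thus also holds the spread of the mutants. In C451A-ERα LCs the values were 12.21 (L4), 13.96 (L58), 12.42 (L27), 13.46 (L76) and 13.69 (L51) on E2, and 13.86 (L56), 11.73 (L18), 13.09 (L61), 13.15 (L53) and 14.53 (L63) on E2+Pg. Their means were 13.15 ± 0.78 and 13.27 ± 1.04 (n = 5 each). L18 had the lowest and L63 the highest value of all 19 mice, 1 on either side of both wild-type groups.

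Under E2+Pg the genotype difference of Fgfr1 was 0.84 (standard error 0.41, adjusted p = 0.276), higher on 4 of 5 slides (−0.96 to 2.08). Without L18 it was 1.23 (adjusted p = 0.0458), and without L4, L27 and L18 together it was 1.23 with an adjusted p of 0.00565. These fits called 1100 and 3029 of all 20804 genes in this comparison. L18 had the lowest value of these mutants, so leaving it out could only raise the difference. The standard error fell to 0.34 and 0.25 in these fits. The 3 other Fgfr1 probes followed the one used (r = 0.885 to 0.921 over the 19 arrays). They gave 0.44 to 0.72 for this difference (adjusted p = 0.265 to 0.502) and −0.49 to −0.26 for E2+Pg against E2 in wild-type LCs.

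Fgfr4, the receptor best known from the liver, was at the edge of detection. Its probe was well above background on 0 of 4 wild-type arrays on E2, 2 of 5 mutant arrays on E2, 4 of 5 wild-type arrays on E2+Pg and 5 of 5 mutant arrays on E2+Pg. The probe thus passed the filter of at least 4 arrays only through mice on E2+Pg, and its treatment differences are not independent of that filter. The means were 5.25 ± 0.16, 5.34 ± 0.15, 5.82 ± 0.51 and 5.64 ± 0.09 in that order. For wild-type LCs on E2 only a bound exists. Here the bound takes, per dim array, the higher of the probe's own signal and the lowest signal well above background. The bound equalled the plain mean of 5.25, so 1.49-fold for wild-type LCs on E2+Pg was the ordinary estimate (limma adjusted p = 0.138). This estimate is not a lower limit, since mouse L21 on E2+Pg was also not well above background. The confidence interval of the log2 difference from limma ran from 0.18 to 0.98. Mouse L57, at 6.65, was the brightest of the wild-type mice on E2+Pg, and the other 4 lay at 5.36 to 5.95. The log2 difference between the wild-type groups was 0.58, and 0.37 without L57. In C451A-ERα LCs every mouse on E2+Pg (5.52 to 5.73) was above every mouse on E2 (5.13 to 5.50), but on E2 the probe was measured above background in only 2 of these 5 mice. Another Fgfr4 probe, above background on 8 arrays, gave −0.10 for E2+Pg against E2 in wild-type and −0.20 in C451A-ERα LCs and did not follow the first (r = −0.04), and the third was above background on 0 arrays.

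Frs2, the docking protein through which FGF receptors reach RAS, varied little. C451A-ERα LCs lay at 9.57 (L4), 10.02 (L58), 9.70 (L27), 9.90 (L76) and 10.02 (L51) on E2 and at 10.33 (L56), 10.07 (L18), 10.07 (L61), 10.37 (L53) and 10.31 (L63) on E2+Pg, with no overlap. The difference of 0.39 (standard error 0.13, 1.31-fold) had a limma adjusted p of 0.115 and a two-sided exact permutation p of 0.00794, and was 0.05 to 0.76 within 5 slides. Wild-type LCs had means of 9.92 ± 0.10 (SD, n = 4) on E2 and 10.15 ± 0.27 (n = 5) on E2+Pg, a difference of 0.23 (standard error 0.14, adjusted p = 0.418). The other tested Frs2 probe gave 0.22 in C451A-ERα LCs (adjusted p = 0.46). Of the 36 pairs of the 9 genes, by the probe used for each, Frs2 and Fgfr4 were among the 4 whose levels were related over all mice. The r was 0.655 and the rho 0.877, with two-sided permutation p adjusted over the 36 pairs of 0.0191 and 0.00036. Mice were shuffled without regard to group, so a difference between groups that both genes share counts in these p. The Fgfr4 probe passed the filter only through mice on E2+Pg, where mean Frs2 was also higher. These p are therefore not independent of the filter. Without L44 and L57 r was 0.783, and after the mean of each group was subtracted it was 0.503, which was not tested. Fgfr4 was at background on 8 of these arrays, and its other tested probe did not follow the one used (r = −0.04).

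**Figure D4:**
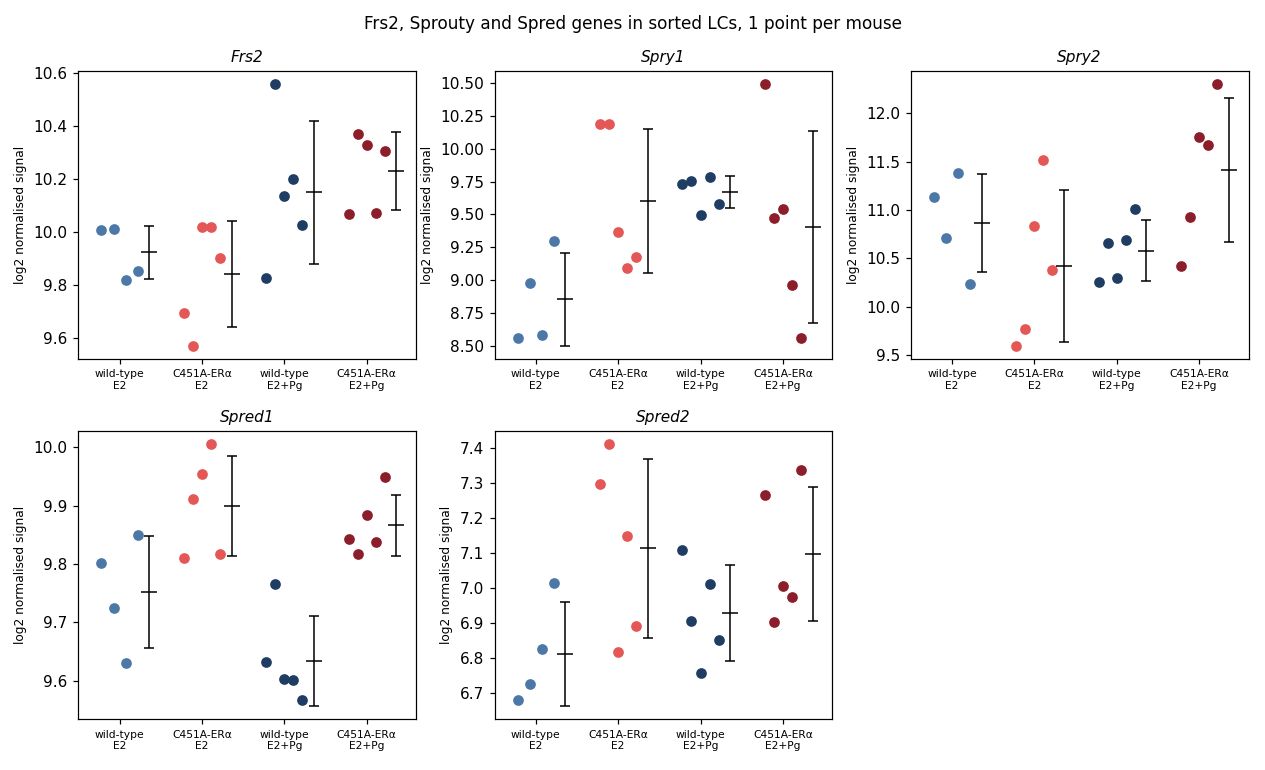
Log2 normalised signal (y axis) of Frs2, Spry1, Spry2, Spred1 and Spred2 in LCs of the 4 groups (x axis), 1 point per mouse, with the mean ± SD beside each group. Spry1 lies at 8.56 to 9.30 in wild-type mice on E2 and at 9.50 to 9.79 in wild-type mice on E2+Pg.

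Spry1, an inhibitor of signaling from receptor tyrosine kinases, separated the treatments in wild-type LCs. The mice on E2 lay at 8.58 (L67), 8.56 (L50), 9.30 (L72) and 8.98 (L52), a mean of 8.85 ± 0.35 (SD, n = 4). The mice on E2+Pg lay at 9.79 (L57), 9.58 (L62), 9.75 (L44), 9.50 (L47) and 9.73 (L21), a mean of 9.67 ± 0.12 (n = 5), all above the highest mouse on E2. The difference was 0.82 (standard error 0.32, 1.76-fold) with a limma adjusted p of 0.206 and a two-sided exact permutation p of 0.00794, and 0.20 to 1.21 within the 4 slides. It passed the test when only these 2 groups were fitted (adjusted p = 0.0472) and without L4, L27 and L18 (adjusted p = 0.0298), 3 mutants that belong to neither of these groups. Of all 20804 genes, these settings called 311 and 795.

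In C451A-ERα LCs Spry1 lay at 10.19 (L4), 9.09 (L58), 10.19 (L27), 9.17 (L76) and 9.37 (L51) on E2 and at 9.54 (L56), 10.50 (L18), 8.96 (L61), 9.47 (L53) and 8.56 (L63) on E2+Pg. Mice L4, L27 and L18 stood highest of all 19 and L63, with wild-type L50, lowest. E2+Pg against E2 was −0.20 here (standard error 0.30, adjusted p = 0.775), and the interaction of −1.01 (standard error 0.43) had an unadjusted p of 0.0311 and an adjusted p of 0.472. Under E2 C451A-ERα was 0.75 above wild-type (standard error 0.32, adjusted p = 0.298), and 0.36 above it without L4, L27 and L18.

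Spry2, the Sprouty gene known from mammary branching, had its highest values in mutants on E2+Pg. C451A-ERα LCs lay at 11.76 (L56), 10.42 (L18), 11.67 (L61), 10.92 (L53) and 12.30 (L63) on E2+Pg and at 9.77 (L4), 11.51 (L58), 9.60 (L27), 10.38 (L76) and 10.84 (L51) on E2, means of 11.42 ± 0.74 and 10.42 ± 0.79 (SD, n = 5 each). The groups overlapped, since L58 on E2 was above L18 and L53 on E2+Pg. The difference of 0.995 (standard error 0.37) had a limma adjusted p of 0.147, and 0.0487 without L58 or 0.0485 without L18. Those fits called 739 and 972 of all 20804 genes. L58 was the highest mutant on E2 and L18 the lowest on E2+Pg, so leaving either out could only raise the difference. In wild-type LCs the values were 11.39 (L67), 11.13 (L50), 10.23 (L72) and 10.71 (L52) on E2 and 10.69 (L57), 11.01 (L62), 10.66 (L44), 10.29 (L47) and 10.25 (L21) on E2+Pg, a difference of −0.28 (standard error 0.39, adjusted p = 0.73). The interaction was 1.28 (standard error 0.53, unadjusted p = 0.0278, adjusted p = 0.472). Between the genotypes Spry2 differed by 0.83 under E2+Pg (standard error 0.37, adjusted p = 0.248), and by 1.08 (adjusted p = 0.0194) without L4, L27 and L18. Leaving out those mice called 3029 of all 20804 genes in this comparison. L18, the lowest mutant on E2+Pg, was among them, so this difference could only rise. The other Spry2 probe, at 5.97 to 7.12, followed the first weakly (r = 0.295) and gave 0.31 for E2+Pg against E2 in C451A-ERα LCs and 0.03 between the genotypes under E2+Pg.

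By the probe used for each gene, Fgfr1 and Spry2 varied together from mouse to mouse, and Spry1 varied against both. Over the 19 mice r was 0.724 for Fgfr1 and Spry2 (rho = 0.633), −0.688 for Fgfr1 and Spry1 (rho = −0.704) and −0.689 for Spry1 and Spry2 (rho = −0.637). The two-sided permutation p adjusted over the 36 pairs of genes, with mice shuffled without regard to group, was 0.0137, 0.0149 and 0.0149 for r and 0.0396, 0.0198 and 0.0396 for rho. Leaving out L18 and L63, the 2 mice farthest from the median of the gene on the x axis, gave 0.637, −0.515 and −0.648. After the group means were subtracted r was 0.819, −0.802 and −0.846, and after the slide means 0.778, −0.664 and −0.731. A slide holds at most 4 mice, too few for a value of its own. The mutants L4, L27 and L18 lay at the low end of Fgfr1 and the high end of Spry1, and L63, L56 and L58 at the high end of Fgfr1 and Spry2. All these values hold for 1 Spry2 probe. The other Spry2 probe followed it only weakly (r = 0.295), and its relation to Fgfr1 and Spry1 was not tested.

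**Figure D5:**
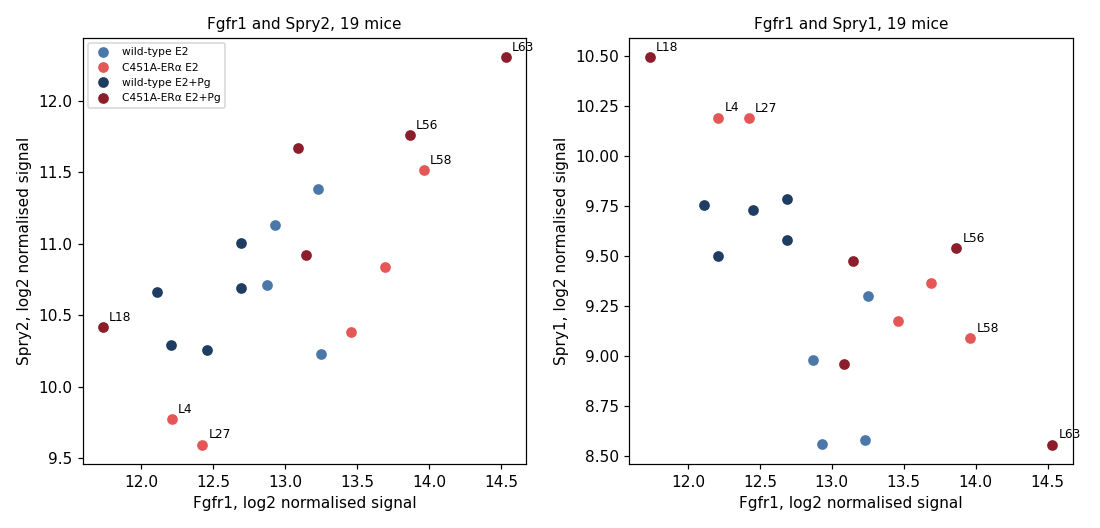
Fgfr1 (x axis) against Spry2 (y axis, left) and Spry1 (y axis, right) in 19 mice, as log2 normalised signal, coloured by group. C451A-ERα mice L4, L27 and L18 lie at Fgfr1 values of 11.73 to 12.42 and at Spry1 values of 10.19 to 10.50, and L63 lies at the opposite corner of both panels.

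Arrays L4, L18 and L27 correlated least with the others of their own groups (median r = 0.962, 0.963 and 0.967, against 0.972 to 0.993 for the other 16). Markers of other cells were also uneven among these mice. The 10 basal and myoepithelial markers, all measured, had a mean deviation of 0.87 in L18 and 0.42 in L4 and −0.06 in L27, against −0.46 to 0.36 in the other mice. Their log2 summed signal was 14.68 to 15.20 in mutants on E2+Pg, 14.45 to 15.16 in mutants on E2, 14.95 to 15.41 in wild-type mice on E2 and 14.48 to 15.21 in those on E2+Pg. The 8 fibroblast markers deviated by 0.70 in L4, 0.47 in L18 and 0.03 in L27, against −1.03 to 0.55 in the others. The 8 pan-luminal markers, all measured as the label of the sort requires, deviated by −0.40 in L18, −0.33 in L4 and −0.13 in L27, against −0.21 to 0.23 in the others. None of the measured markers of basal, fibroblast, pan-luminal, luminal progenitor, immune, endothelial or adipose cells was called in any comparison. Of all genes 0% to 2.45% were called, by comparison, so few calls would be expected among these markers. The lack of calls therefore does not show an unchanged mix of cells. The part of these shifts in the values of Fgfr1 and the Sprouty genes was not tested.

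Spred1 and Spred2 encode membrane-associated inhibitors of RAF activation that carry a Sprouty-related domain. The means of Spred1 were slightly higher in the mutants. Under E2+Pg the C451A-ERα mice lay at 9.88 (L56), 9.84 (L18), 9.84 (L61), 9.82 (L53) and 9.95 (L63) and the wild-type mice at 9.60 (L57), 9.57 (L62), 9.77 (L44), 9.60 (L47) and 9.63 (L21), with no overlap. This was a difference of 0.23 (standard error 0.08, 1.17-fold), under the fold threshold, with a limma adjusted p of 0.198 and a two-sided exact permutation p of 0.00794, and 0.07 to 0.32 within 5 slides. Under E2 it was 0.15 (standard error 0.09), and averaged over both treatments 0.19 (standard error 0.06, adjusted p = 0.0937). The other Spred1 probe did not follow the first (r = 0.00) and gave an averaged difference of −0.06, the opposite sign. Spred2 lay at 6.82 to 7.41 in the mutants and 6.68 to 7.11 in the wild-type mice, with an averaged difference of 0.24 (standard error 0.10, adjusted p = 0.188) and largely overlapping groups. Its 2 other tested probes also followed it weakly (r = 0.233 and 0.15).

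The rest of the pathway was read through a list of 64 ligands, co-receptors, adaptors, kinases, targets and inhibitors, of which 52 were measured. Between the genotypes 0 of 52 were called under E2 and 0 under E2+Pg, and 1 was called in the average over both treatments (2.28% of all genes). E2+Pg against E2 called 1 of 52 in wild-type LCs (1.31% of all genes) and 4 of 52 in C451A-ERα LCs (2.45% of all genes), and the interaction called 0. The median log2 fold change of the 52 was −0.06, 0.17, 0.08, −0.05, 0.13 and 0.17 in the order of those 6 comparisons, beside medians of 0.03, −0.03, 0.01, 0.04, 0.00 and −0.05 over all genes.

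Of the ligands, 9 of 18 were measured and 0 were called in any comparison. Fgf1, a ligand of all FGF receptors, had the lowest p of them between the genotypes under E2+Pg, with 10.37 ± 0.71 (SD, n = 5) in C451A-ERα and 9.23 ± 0.11 (n = 5) in wild-type LCs (1.13, standard error 0.31, adjusted p = 0.121). Of the 10 co-receptors 8 were measured. Sdc1, the heparan sulfate proteoglycan syndecan-1, fell with E2+Pg in wild-type LCs, from 12.25 ± 0.27 (n = 4) to 11.46 ± 0.20 (n = 5), by 0.78 on the log2 scale (standard error 0.18, limma adjusted p = 0.0406). Gpc1, the proteoglycan glypican-1, fell with E2+Pg in C451A-ERα LCs, from 12.87 ± 0.26 to 12.00 ± 0.29 (n = 5 each), by 0.87 (standard error 0.18, limma adjusted p = 0.0167). All 20 adaptors and kinases of the RAS-ERK core were measured and 0 were called. Frs3, the relative of Frs2, gave 0.45 for E2+Pg against E2 in wild-type LCs (adjusted p = 0.126).

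All 10 target genes were measured. The FGF-induced transcription factors Etv1 and Etv4 fell with E2+Pg in C451A-ERα LCs. Etv1 went from 8.72 ± 0.35 to 7.39 ± 0.55 (n = 5 each; −1.33, standard error 0.28, limma adjusted p = 0.0168) and Etv4 from 9.95 ± 0.56 to 8.94 ± 0.32 (−1.01, standard error 0.26, adjusted p = 0.0415). In wild-type LCs the same comparison gave −0.90 for Etv1 (adjusted p = 0.141), with means of 8.08 ± 0.33 (n = 4) and 7.18 ± 0.59 (n = 5). Between the genotypes under E2+Pg, Etv4 stood at −1.05 (standard error 0.26, adjusted p = 0.111) while Dusp6, the ERK phosphatase often read as a gauge of FGF signaling, stood at 0.52 (standard error 0.15, adjusted p = 0.140), and neither passed the test. Of the 10 targets, 5 were higher and 1, Etv4, was lower at an unadjusted p under 0.05 in this comparison, with a median of 0.50. At that threshold 18.3% of all genes passed, 1664 higher and 2145 lower. Dusp4, another phosphatase of ERK, was higher in C451A-ERα LCs over both treatments, by 0.97 (standard error 0.23, limma adjusted p = 0.032). Its means were 11.41 ± 0.41 (n = 5) against 10.52 ± 0.69 (n = 4) on E2 and 10.86 ± 0.58 against 9.81 ± 0.47 (n = 5 each) on E2+Pg.

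Of the 6 other feedback inhibitors 5 were measured, and Rasal1, a GTPase-activating protein that turns RAS off, rose with E2+Pg in C451A-ERα LCs from 7.47 ± 0.10 to 8.49 ± 0.57 (n = 5 each; 1.02, standard error 0.27, limma adjusted p = 0.046). The same comparison gave 0.92 for Rasal1 in wild-type LCs (adjusted p = 0.111). For the interaction, Gpc1 (−0.77, adjusted p = 0.472) and the phosphatases Dusp1 (0.87, adjusted p = 0.472) and Dusp5 (1.49, adjusted p = 0.472) had the lowest p of the 52. The calls depend on the settings: over the alternatives run, Gpc1 kept its call in 16 of 19, Etv1 in 14 of 19, Etv4 in 8 of 19, Rasal1 in 7 of 19, Sdc1 in 8 of 18 and Dusp4 in 13 of 27.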

How the data were processed

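Agilent 1-colour mouse arrays (59305 spots, 56605 probes) were made from 19 mice, 1 array each. As deposited, the scanner files hold the spot intensity from Agilent Feature Extraction 10.10.1.1. The authors' value table holds log2 median signals that the authors filtered, corrected for batch (washing bath, serial labelling) and quantile-normalized, and it was used as an alternative. Here the log2 of the median signal was quantile-normalized without background subtraction, which understates differences of dim probes, after 1370 outlier spots were left out. Probes well above background on at least 4 arrays were kept (31842), and the brightest represented each gene. Means of 4 groups were fitted with limma 3.58.1 (R 4.3.3; 15 residual degrees of freedom), with Benjamini-Hochberg adjustment over 20804 genes. Two-sided exact permutation tests over mice were run for single genes. The fit was tested on simulated data. Each of 5 slides held at most 1 mouse per group. 1 mouse of the design (wild-type on E2) was not analysed here. Gene names came from the scanner files, and 1699 probes were renamed by accession through the RefSeq reference table. Members, gene lists and the 3 mice left out together were chosen with earlier results of these data known. All members are named. Other pathway genes are named when called or among the 3 lowest p of a comparison (1 such gene is not reported here), and the 3 genes most like Fgfr3 by Pearson r.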

Additional observations from a re-analysis of the deposited data

Results flagged for a closer look

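Mouse L4, a C451A-ERα mouse on E2, stood apart from its group in Fgfr2, with 8.42 against 9.03 to 9.16 in the other 4 mice, and the gap to the nearest of them was 0.82 of the range of the group. This was 1 of 36 pairs of a gene and a group that were examined, and chance flags about 1 in 20.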

How the results depend on the processing

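Under the main settings 0 members were called in each comparison. With mice L4, L27 and L18 left out, 2 were called between the genotypes under E2+Pg (Fgfr1 and Spry2), 1 for E2+Pg against E2 in wild-type LCs (Spry1) and 2 in the averaged genotype difference (Fgfr1 and Fgfr2). Of all 20804 genes, that setting called 3029, 795 and 2528 in the same comparisons. Fitting only the groups compared called 1 (Spry1, wild-type LCs), beside 311 of all 20804 genes. The authors' value table and the probes above background on all arrays each called 1 (Fgfr2, C451A-ERα LCs). These settings called 695 of 19791 and 575 of 15545 genes in that comparison. With 1 mouse left out the count was 0 to 1 between the genotypes under E2 (Fgfr2, without L72), 0 to 1 under E2+Pg (Fgfr1, without L18), 0 to 1 with E2+Pg in C451A-ERα LCs (Spry2, without L58 or L18) and 0 to 1 in the average (Fgfr2, without L72), and 0 in the other comparisons. Beside these member calls, those fits called 1045, 1100, 739 or 972, and 997 of all 20804 genes, in the order given. Each of these mice held the value of its group that most reduced the difference for that gene. Leaving that mouse out could only widen the difference. The interaction gave 0 in all settings run. Over all genes, the count of calls was 0 to 301 between the genotypes under E2, 0 to 3029 under E2+Pg, 74 to 795 and 112 to 695 with E2+Pg in wild-type and C451A-ERα LCs, and 249 to 2528 in the average. With 1 mouse left out it was 0 to 1045 (1045 without L72), 1 to 1100 (1100 without L18), 28 to 578, 200 to 972 and 5 to 997, and 0 to 24 for the interaction. The labels give the mice no shared replicate numbers. Mice of a slide were paired by fitting the slide as a block, which called no member.

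Other values changed sign, and the cause was not tested. Under E2 the genotype difference turned to −0.027 for Fgfr1, −0.038 for Fgfr4 and −0.15 for Spred1 with other probes, and to 0.056 for Frs2 and 0.046 for Spry2 without the 3 mice. Under E2+Pg it turned to −0.11 for Fgfr3 and −0.040 for Spred2 with other probes and 0.095 for Fgfr4 with processed signals. With E2+Pg in wild-type LCs, other probes gave −0.10 for Fgfr4 (0.58 with the probe used), −0.49 for Spred2 and 0.25 for Spry2, and Spred2 was −0.0094 with processed signals and −0.10 as the mean of its probes. In C451A-ERα LCs, other probes gave −0.20 for Fgfr4 (0.30 with the probe used) and 0.024 for Spred1, the 3 mice left out gave −0.045 for Fgfr1 and 0.10 for Spred2, and processed signals 0.032 for Spred2. The interaction was −0.0051 for Spred1 and 0.042 for Spred2 with processed signals, and for Spred2 0.021 as the mean of probes and 0.34 with another probe. In the average, processed signals gave 0.15 for Fgfr4, the values of the authors 0.0013 for Frs2, other probes −0.060 for Spred1 and −0.0016 for Spry2, and the 3 mice left out 0.0057 for Fgfr4, 0.088 for Frs2 and −0.090 for Spry1.

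With 1 mouse left out, values crossed 0 for Fgfr1 under E2 (−0.13 to 0.31), Fgfr4 (−0.31 to 0.017) and Frs2 (−0.0014 to 0.18) under E2+Pg, and Fgfr2 with E2+Pg in wild-type LCs (−0.40 to 0.26). In C451A-ERα LCs they did for Fgfr1 (−0.19 to 0.51), Fgfr3 (−0.10 to 0.18), Spred2 (−0.090 to 0.058) and Spry1 (−0.47 to 0.014), and in the average for Fgfr4 (−0.11 to 0.055) and Frs2 (−0.042 to 0.050). Of 462 values in other settings 438 kept their direction and side of the threshold. Part of this was fixed in advance: fitting only the groups compared, or keeping dim probes, left the differences themselves unchanged. With other probes 13 of 66 values changed direction, and with 1 mouse left out 26 of 684 did. The number of arrays limits precision, and Fgfr4 was above background on 11 arrays and Spry4 on 0.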
